A study of Mus musculus with 4 samples.

Results

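Expression of the MHC class I antigen presentation pathway and the immunoproteasome was described in mouse mammary tumours through 10 genes: B2m, H2-K1, H2-D1, Tap1, Tap2, Tapbp, Psmb8, Psmb9, Psmb10 and Nlrc5. The genes were proposed with results of the comparison below already known, so their values are given as a description. Counts of members past the threshold of a fit over all genes are printed for scale, and nothing is read from them. Their probe sets were all those whose only annotated symbol was one of the 10, which gave 27 of the 45037 probe sets other than controls. Every gene had at least 1, and 22 of the 27 were left after the dimmest 40% of probe sets were set aside. H2-D1 had 2 and Tap1 had 3 of the 5 dim ones.

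The samples were 4 tumours that grew in nude mice after transplantation of Eph4 cells, an established mouse mammary epithelial line, with 1 Affymetrix mouse genome array for each tumour. In 2 tumours (Eph_EN_DN) the cells carried ETV6-NTRK3, a fusion of a transcription factor gene with the kinase domain of a neurotrophin receptor gene, and co-expressed TAM67, a dominant negative c-Jun. In the other 2 tumours (Eph_EN) the cells carried ETV6-NTRK3 without TAM67. All 4 tumours therefore share the fusion, the cell line and the nude host, a strain without a thymus that lacks most mature T cells but keeps macrophages, dendritic cells and NK cells. The comparison asked how far the tumour-forming action of the fusion runs through AP-1. The strain of the hosts and of the cell line, the age of the hosts, and whether the cells were clonal are not given in the sources used here. Epithelial keratin was present on every array: Krt8 read 1596 and 1470 units in Eph_EN_DN tumours, against 2048 and 2017 units in Eph_EN tumours. Epcam, an epithelial adhesion molecule, read 226 and 248 units in Eph_EN_DN tumours, against 307 and 246 units in Eph_EN tumours.

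MHC class I molecules show short peptides from inside the cell to CD8 T cells and NK cells. A heavy chain such as H2-K or H2-D pairs with beta-2 microglobulin, and the peptides are cut by the proteasome, carried into the endoplasmic reticulum by the transporter TAP and loaded with the help of tapasin. In cells exposed to interferon gamma the catalytic subunits of the standard proteasome are replaced by Psmb8, Psmb9 and Psmb10, which form the immunoproteasome. Nlrc5 is the transactivator that raises class I transcription through a promoter unit made of W/S, X1, X2 and Y boxes. Leukocytes express these genes strongly, and epithelial cells express them at levels that follow interferon.

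Promoter sequences are shown for the heavy chains, for B2m and for Tap1, whose window holds the start of Psmb9, because these windows carry the matches described after them. The windows run from 250 bases before to 50 bases after a transcript start in the RefSeq table of build GRCm38.p6, the C57BL/6J genome, and are written 5′ to 3′ on the strand of the gene. Capitals mark letters that matched a motif searched on both strands: GAAA, any 2 bases and GAAA (interferon response element), AGTTTC, any 2 bases and TT (class I interferon consensus), GGG, any 5 bases and CCC (kappa B type), TGACG (as in the X2 box and the CRE), ATTGG (the Y box, the reverse of CCAAT) and TGANTCA (AP-1). The H2-K1 window lies at chr17:34000298-34000597 on the minus strand, H2-D1 at chr17:35262844-35263143 on the plus strand, B2m at chr2:122147437-122147736 on the plus strand and Tap1 at chr17:34187306-34187605 on the plus strand.
H2-K1: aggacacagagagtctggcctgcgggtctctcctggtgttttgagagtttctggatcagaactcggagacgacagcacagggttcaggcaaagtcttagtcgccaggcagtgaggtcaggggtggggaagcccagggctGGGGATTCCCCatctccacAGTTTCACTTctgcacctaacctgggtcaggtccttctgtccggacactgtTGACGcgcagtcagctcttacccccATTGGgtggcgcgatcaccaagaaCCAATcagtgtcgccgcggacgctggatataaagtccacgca
H2-D1: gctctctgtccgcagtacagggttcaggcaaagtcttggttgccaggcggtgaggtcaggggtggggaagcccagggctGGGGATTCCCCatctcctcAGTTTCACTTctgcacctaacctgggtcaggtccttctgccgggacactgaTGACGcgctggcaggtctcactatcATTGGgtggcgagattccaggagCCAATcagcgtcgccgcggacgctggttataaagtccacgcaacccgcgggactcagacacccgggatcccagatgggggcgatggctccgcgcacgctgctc
B2m: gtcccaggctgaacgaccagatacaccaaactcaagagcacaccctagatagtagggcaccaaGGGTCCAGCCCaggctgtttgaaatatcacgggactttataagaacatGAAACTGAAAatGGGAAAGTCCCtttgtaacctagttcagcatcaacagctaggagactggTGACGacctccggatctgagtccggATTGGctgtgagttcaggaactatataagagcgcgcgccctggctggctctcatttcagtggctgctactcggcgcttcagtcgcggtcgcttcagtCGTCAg
Tap1: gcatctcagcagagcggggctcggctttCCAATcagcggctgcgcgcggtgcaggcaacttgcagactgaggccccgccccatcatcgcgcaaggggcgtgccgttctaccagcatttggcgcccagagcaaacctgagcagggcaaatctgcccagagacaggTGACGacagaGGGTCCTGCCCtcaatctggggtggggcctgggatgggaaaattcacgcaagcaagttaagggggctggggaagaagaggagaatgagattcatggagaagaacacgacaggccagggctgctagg

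The H2-K1 and H2-D1 windows aligned over 228 columns with 90.4% identity, and their longest identical run of 47 bases held the kappa B type letters. Both carried the class I interferon consensus, which was found in 1.72% of 32851 RefSeq promoter windows. B2m carried the interferon response element, found in 3.44% of windows. The kappa B type letters (14.0% of windows) and TGACG (20.8%) were found in 5 of the 8 members with a window, namely B2m, H2-K1, H2-D1, Tap1 and Psmb9, and ATTGG (37.4%) in these 5 and in Tapbp. The windows of Psmb8 and Psmb10 held none of the motifs searched. TGANTCA was found in 7.81% of windows and in none of the 9 windows of these 8 members, which says only that the letters are not in these stretches. Psmb9, Tap1, Psmb8 and Tap2 are neighbours on chromosome 17, and Psmb9 and Tap1 start 226 bases apart on opposite strands, so that their windows share 275 bases. The matches counted for Tap1 and for Psmb9 are the same bases read on opposite strands. A match of letters is a description and not evidence of a bound site.

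Each difference given from here on is Eph_EN_DN minus Eph_EN of log2(intensity + 16), from n = 2 tumours a group. The brightest probe set stands for a gene unless another is named. Intensities are in array units, and levels of different genes were not compared because each probe set has its own response. Sums over a gene list, given further on, are read between tumours only and are weighted toward the brightest genes of the list. In 9 of the 10 genes both Eph_EN_DN tumours read lower than both Eph_EN tumours, and over all 13325 genes tested this held for 19.9%. None of the 10 was higher without overlap, beside 20.3% of all genes. Differences were below 0 in 9 of the 10 and at -0.5 or lower in 8, beside 47.6% and 5.99% of all genes. The median difference of the 10 genes was -0.89, against 0.020 over all genes tested. In limma's fit across all genes 1 of the 10 (H2-K1) was past an adjusted p of 0.05 and lower, beside 0.435% of all genes, and 0 were higher, beside 0.143%, with 0.578% of genes past it in either direction. The count of members was 0 with quantile normalization, with a gene's probe sets averaged, without the intensity trend and with the replicate number as a block. It was 5 without Eph_EN tumour 2, 1 without Eph_EN tumour 1, and 0 without Eph_EN_DN tumour 1 or 2, when 88, 99, 24 and 12 of all genes were lower, against 58 with all tumours, fits that take the spread of the lone tumour's group from the other one. Since the genes were chosen on this contrast, these shares are printed for scale only.

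**Figure D1:**
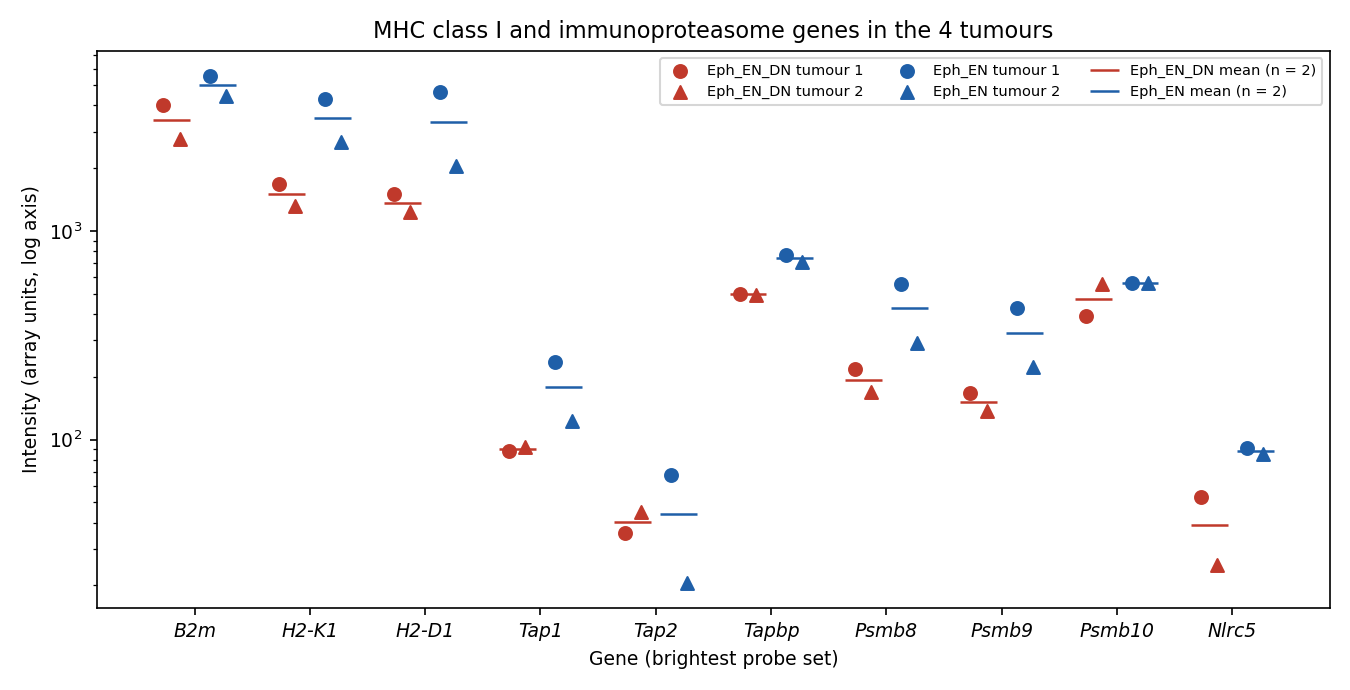
Intensity (array units, log axis) of the brightest probe set of each of the 10 genes, with circles for tumour 1, triangles for tumour 2 and a bar for the group mean (n = 2), Eph_EN_DN left in red and Eph_EN right in blue. In 9 genes both red points lie below both blue points, and in Tap2 the groups overlap.

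The heavy chains are the part of the molecule that binds the peptide. H2-K1, a classical heavy chain, read 1673 and 1321 units in Eph_EN_DN tumours, against 4302 and 2660.0 units in Eph_EN tumours. Both Eph_EN_DN tumours were low, and Eph_EN tumour 1 stood above Eph_EN tumour 2. The mean of 1497 ± 248 units in Eph_EN_DN tumours and 3481 ± 1161 units in Eph_EN tumours (SD) gave a ratio of 0.430 and a log2 difference of -1.18 ± 0.22 (SE of the fit). That difference was -0.83 without Eph_EN tumour 1 and -1.52 without Eph_EN tumour 2. Each SE here and below rests on a variance drawn toward the trend over all genes, not on the gene's own tumours alone. The pooled SD of log2 values within groups was 0.38 for H2-K1, 0.60 for H2-D1, 0.61 for Tap2 and 0.057 for Tapbp.

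H2-D1, the other classical heavy chain read here, showed the same order of tumours. It read 1498 and 1233 units in Eph_EN_DN tumours, against 4631 and 2040.0 units in Eph_EN tumours, a log2 difference of -1.17 ± 0.27 (SE). Eph_EN tumour 1 was again the highest, and the difference was -0.58 without it, against -1.76 without Eph_EN tumour 2.

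All 4 H2-K1 probe sets and all 7 H2-D1 probe sets that were kept had groups that did not overlap, with differences of -1.30 to -1.01 and -1.33 to -0.93. Over all 22519 kept probe sets with 1 symbol, 18.9% were lower and 21.0% higher without overlap. Of the 22 kept probe sets of the 10 genes, 21 were lower and 0 higher without overlap. Of those 22, 11 have an identifier that ends in x, which the array's maker gives to sets with probes that also match other sequences. Class I heavy chain genes are near-identical and differ between mouse strains, so these readings may mix several heavy chains, and the probe sets of a gene are not independent of each other. The 1 kept H2-D1 probe set without that ending read 97.2 and 60.2 units in Eph_EN_DN tumours, against 252 and 100.3 units in Eph_EN tumours (-0.93). Its higher Eph_EN_DN value came close to its lower Eph_EN value. The 2 dim H2-D1 probe sets differed by 0.26 and 0.23 at 8.54 to 20.7 units, below the array medians of 35.6 to 40.8. The first of them was higher without overlap, at 18.9 and 13.4 units in Eph_EN_DN tumours, against 11.4 and 10.3 units in Eph_EN tumours.

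B2m encodes the light chain that every class I heavy chain needs. It read 4016 and 2764 units in Eph_EN_DN tumours, against 5533 and 4452 units in Eph_EN tumours. Here Eph_EN_DN tumour 2 was the low one, and Eph_EN_DN tumour 1 lay close to Eph_EN tumour 2. The log2 difference was -0.57 ± 0.19 (SE), and the other B2m probe set gave -0.52. With each tumour left out in turn it ran from -0.84 to -0.30 for B2m, beside -1.52 to -0.83 for H2-K1, and the contrast between these genes was not tested.

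**Figure D2:**
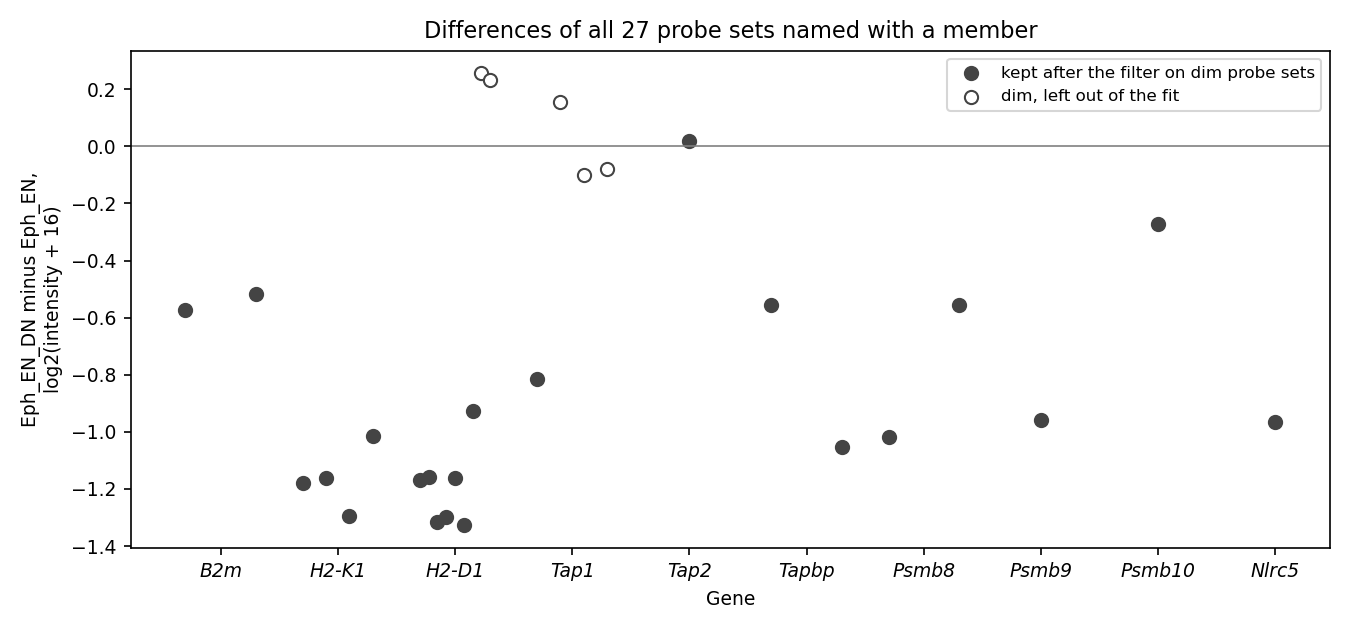
Difference between group means, Eph_EN_DN minus Eph_EN on the scale log2(intensity + 16), for all 27 probe sets by gene, filled where kept and open where dim. Kept H2-K1 and H2-D1 sets lie between -1.33 and -0.93, and the open points of H2-D1 and Tap1 lie between -0.10 and 0.26.

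Peptide supply and loading were represented by Tap1, Tap2 and Tapbp. Tap1, a subunit of the peptide transporter, read 88.2 and 92.2 units in Eph_EN_DN tumours, against 236 and 122 units in Eph_EN tumours. The Eph_EN_DN pair was tight and Eph_EN tumour 1 stood apart, so that the log2 difference of -0.81 ± 0.25 (SE) was -0.38 without Eph_EN tumour 1 and -1.25 without Eph_EN tumour 2. The 3 other Tap1 probe sets were dim, with readings of 0.725 to 28.1 units and overlapping groups.

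Tap2, the partner of Tap1 in the transporter, read 35.8 and 45.0 units in Eph_EN_DN tumours, against 67.8 and 20.7 units in Eph_EN tumours. The groups overlapped, the 2 Eph_EN tumours held both the highest and the lowest value, and the difference was 0.020 ± 0.38 (SE).

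Tapbp encodes tapasin, which bridges the transporter and the empty class I molecule. It read 502 and 493 units in Eph_EN_DN tumours, against 768 and 710.5 units in Eph_EN tumours. Both pairs were tight, and the log2 difference of -0.56 ± 0.21 (SE) stayed between -0.61 and -0.50 with any 1 tumour left out. The second Tapbp probe set, which is dimmer, read 76.2 and 74.6 units in Eph_EN_DN tumours and 191 and 157 units in Eph_EN tumours, a difference of -1.05. The probe sets of this gene agree in direction and differ in size.

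Among the immunoproteasome subunits, Psmb8 and Psmb9 had wider differences than Psmb10, a contrast that was not tested. Psmb8, the subunit that takes the place of Psmb5, read 219 and 169 units in Eph_EN_DN tumours, against 560.0 and 292 units in Eph_EN tumours (-1.02 ± 0.27, SE). Its second, dimmer probe set gave -0.56. Psmb9, which takes the place of Psmb6, read 167 and 137 units in Eph_EN_DN tumours, against 429 and 222 units in Eph_EN tumours (-0.96 ± 0.27, SE). In both genes Eph_EN tumour 1 was the highest, and without it the differences were -0.56 for Psmb8 and -0.51 for Psmb9.

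Psmb10, which takes the place of Psmb7, read 390.0 and 555 units in Eph_EN_DN tumours, against 565 and 565 units in Eph_EN tumours. Eph_EN_DN tumour 2 lay just under the Eph_EN pair, and the log2 difference of -0.27 ± 0.22 (SE) was -0.025 without Eph_EN_DN tumour 1 and -0.52 without Eph_EN_DN tumour 2. The constitutive counterparts were at 0.04 for Psmb5, -0.02 for Psmb6 and 0.30 for Psmb7 in the same comparison. Psmb5 read 510 and 705 units in Eph_EN_DN tumours, against 538 and 630 units in Eph_EN tumours, so that its groups overlapped.

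Nlrc5 was dim but separated. It read 53.3 and 25.02 units in Eph_EN_DN tumours, against 91.2 and 85.1 units in Eph_EN tumours, a log2 difference of -0.97 ± 0.27 (SE). The Eph_EN pair was tight and Eph_EN_DN tumour 2 was the lowest; without that tumour the difference was -0.59. With a pseudocount of 64, which narrows the differences of dim genes, it was -0.57.

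The genes varied in how the Eph_EN tumours compared with each other. Eph_EN tumour 1 exceeded tumour 2 by 1.18 on the log2 scale in H2-D1, 0.90 in Psmb8, 0.90 in Psmb9, 0.87 in Tap1 and 1.19 in Tap2. Over all genes tested, 3.56% had a gap of 0.8 or more in that direction. The gap was 0.69 in H2-K1 and 0.31 in B2m, whereas it was 0.11 in Tapbp, 0.084 in Nlrc5 and 0.00044 in Psmb10. Between the Eph_EN_DN tumours the gap of tumour 1 over tumour 2 ran from -0.49 in Psmb10 to 0.76 in Nlrc5, with a median of 0.27.

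Other genes of the class I pathway were counted from 5 lists in the same limma fit, and 1 of their 72 tested genes passed. Of 30 other class I heavy chain and class I-like genes listed, 15 had a probe set of their own. H2-Q4, H2-Q7, H2-T23 and H2-L were among those without one. None of the 13 tested passed an adjusted p of 0.05. Their median difference was -0.19, with 10 negative. The farthest were H2-Q5, a heavy chain of the Q region (-2.21, adjusted p = 0.0961), and Azgp1, a soluble class I-like protein, at 0.80 (adjusted p = 0.603). H2-Q5 read 1.92 and 2.13 units in Eph_EN_DN tumours, against 46.2 and 95.9 units in Eph_EN tumours. The pseudocount sets the size of that difference, since both Eph_EN_DN readings are near background. H2-M3, which presents formylated peptides, was at -0.19, and Hfe, a class I-like regulator of iron, at -0.25.

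None of 12 genes of peptide loading and trimming passed, with a median of -0.0097 and 6 negative. Calr, the chaperone calreticulin of the loading complex, read 1465 and 1561 units in Eph_EN_DN tumours, against 1977 and 2115 units in Eph_EN tumours (-0.43, adjusted p = 0.430 from limma). Tpp2, a cytosolic peptidase, was at 0.30, the chaperone Canx at 0.24 and the trimming peptidase Erap1 at 0.11. Chaperones and peptidases of this list lay on both sides of 0.

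None of 8 proteasome activator and assembly genes passed (median 0.060), with Psmg2, an assembly chaperone, at 0.73 and Psme4, an activator, at 0.44. Psme1, the alpha subunit of the interferon-inducible activator PA28, read 618 and 630 units in Eph_EN_DN tumours, against 851 and 703 units in Eph_EN tumours (-0.30). Nor did any of 14 constitutive 20S core genes pass (median 0.043, range -0.20 to 0.30), with Psmb7 at 0.30 and Psma3 at 0.25 farthest. With each array centred on its median, the medians of these 2 lists were -0.039 and -0.056.

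Of 25 genes of class I transcription and interferon signalling, Irf7, which drives type I interferon genes, was the 1 that fell, and 0 rose. It read 75.6 and 104 units in Eph_EN_DN tumours, against 278 and 170 units in Eph_EN tumours (-1.16, adjusted p = 0.0385 from limma). The call was absent without Eph_EN tumour 1 and without either Eph_EN_DN tumour, and also with quantile normalization, averaged or separate probe sets, no intensity trend, an adjusted p of 0.01 and the replicate block. The list median was -0.17 with 17 negative. Irf9, a subunit of the interferon-activated complex ISGF3, was at -0.93 (adjusted p = 0.115), and Irf1, which binds interferon elements of class I promoters, read 495 and 541 units in Eph_EN_DN tumours, against 812 and 741 units in Eph_EN tumours (-0.57, adjusted p = 0.346). Ciita, the transactivator of class II genes, was at -0.29. The factors of the X and Y boxes lay on both sides of 0, with Nfyb at 0.67, Rfx5 at 0.60, Creb1 at 0.55, Rfxap at 0.25, Nfyc at 0.22, Nfya at -0.17 and Rfxank at -0.21, none of them past the threshold.

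**Figure D3:**
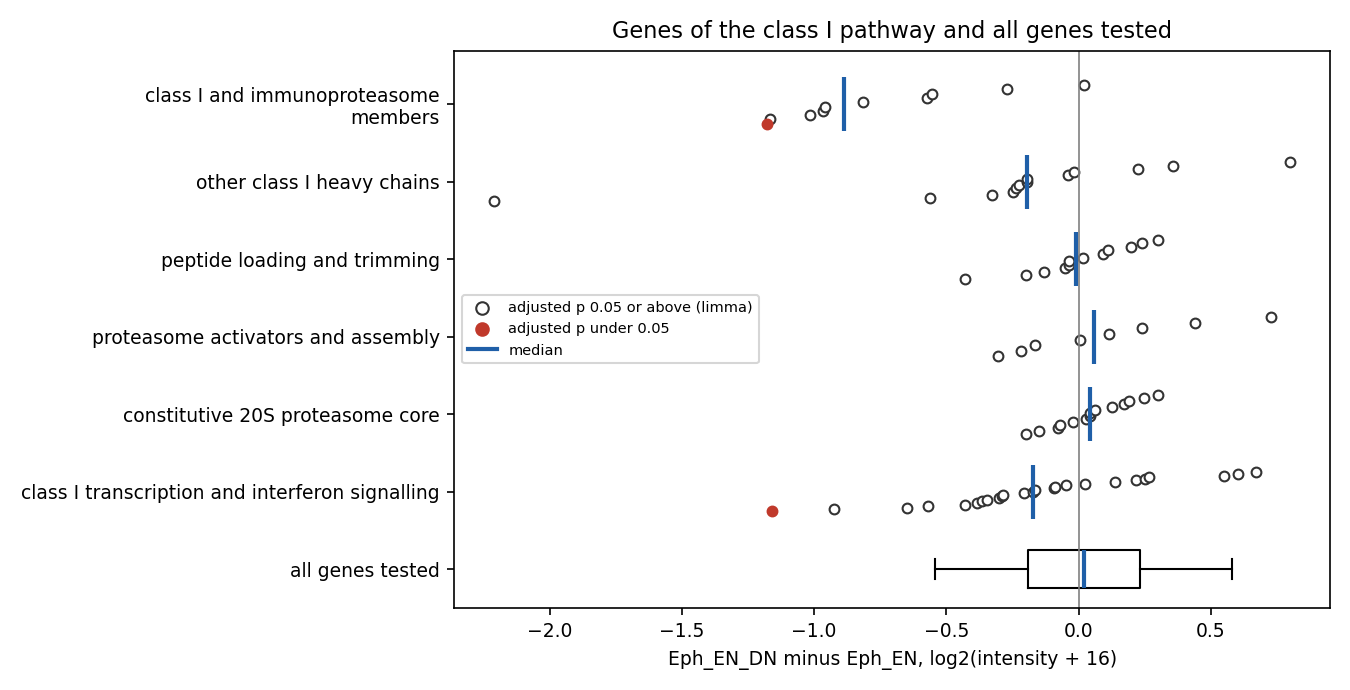
Difference Eph_EN_DN minus Eph_EN on the scale log2(intensity + 16) for each gene tested of the 10 members and of 5 pathway lists, with the list median as a blue bar, and a box for all 13325 genes (quartiles, whiskers from the 5th to the 95th percentile). Red points passed an adjusted p of 0.05. The members' median lies at -0.89 and those of the other lists between -0.19 and 0.060.

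Marker lists of other cell types were read beside the class I genes, and in tumour RNA fewer cells of a type and less RNA per cell cannot be told apart. All 15 leukocyte and macrophage markers were negative (median -0.40, 0 past the threshold). Lower without overlap were 9 of these 15 and 8 of 10 dendritic cell and class II genes. So were 13 of 15 fibroblast, 6 of 8 endothelial and 4 of 8 T, NK and B cell genes. In these lists, in that order, 0, 1, 1, 0 and 2 genes were higher without overlap. Over all genes tested 19.9% were lower and 20.3% higher without overlap. The summed intensity of the leukocyte and macrophage markers was 14029 and 11888 units in Eph_EN_DN tumours, against 22289 and 17433 units in Eph_EN tumours. The differences ran from -0.88 in Lyz2 to -0.14 in Cd14. Ptprc, the common leukocyte antigen, read 412 and 310 units in Eph_EN_DN tumours, against 512 and 403 units in Eph_EN tumours, so that its groups overlapped. Of 10 dendritic cell and class II genes 9 were negative (median -0.63), and Cd74 (-1.48, adjusted p = 0.00347) and H2-Ab1 (-1.26, adjusted p = 0.0253) fell in the limma fit. Class II genes had the widest differences of that list, while the dendritic cell markers Batf3 (-0.15), Xcr1 (-0.15), Flt3 (-0.088) and Siglech (0.49) lay nearer to 0 or above it and Itgax was at -0.55. The summed intensity of that list was 3819 and 3953 units in Eph_EN_DN tumours, against 10693 and 6389 units in Eph_EN tumours. Bright genes weigh most in it: in Eph_EN tumour 1 Cd74 read 4511 units and H2-Aa 3553 units.

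Of 18 T, NK and B cell markers 15 were named on the array and 8 were bright enough to be tested. Their summed intensity of 506 and 544 units in Eph_EN_DN tumours stood against 610 and 545 units in Eph_EN tumours, a near overlap, and none passed (median -0.15, 4 negative and 4 positive). Cd3e, a chain of the T cell receptor complex, read 131 and 124 units in Eph_EN_DN tumours, against 102 and 78.8 units in Eph_EN tumours. Gzmb, a granzyme, was at 0.27 and Prf1, perforin, at -0.80. Cd8a read 93.0 and 88.8 units in Eph_EN_DN tumours, against 106 and 129 units in Eph_EN tumours. Fibroblast genes (14 of 15 negative, median -0.52) and endothelial genes (8 of 8 negative, median -0.55) also lay mostly below 0, none past the threshold. In both lists Eph_EN tumour 2 had the highest sum. For fibroblasts the sums were 34074 and 31194 units in Eph_EN_DN tumours, against 38637 and 46836 units in Eph_EN tumours.

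Epithelial markers had a median of -0.20, with 5 of 9 negative and none past the threshold. Of the 9, 4 were lower and 1 higher without overlap, beside 19.9% and 20.3% of all genes. Their summed intensity was 3138 and 3424 units in Eph_EN_DN tumours, against 3766 and 3984 units in Eph_EN tumours. Adipocyte genes ran the other way (8 of 8 positive, median 1.65, 4 that rose), with summed intensities of 1607 and 6881 units in Eph_EN_DN tumours, against 719 and 475 units in Eph_EN tumours. Of 10 skeletal muscle genes 3 were bright enough to be tested, and 1 of them rose. Signs of RNA quality also differed: the ratio of 3′ to 5′ signal of Gapdh was 1.17 and 1.11 in Eph_EN_DN tumours, against 0.938 and 1.04 in Eph_EN tumours. That of beta-actin was 1.31 and 1.34 in Eph_EN_DN tumours, against 1.11 and 1.19 in Eph_EN tumours. The 18S control probe sets averaged 6.76 and 7.43 on the log2(intensity + 16) scale in Eph_EN_DN tumours, against 5.43 and 6.40 in Eph_EN tumours. The part of these cell types and of RNA quality in the class I differences was not tested.

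**Figure D4:**
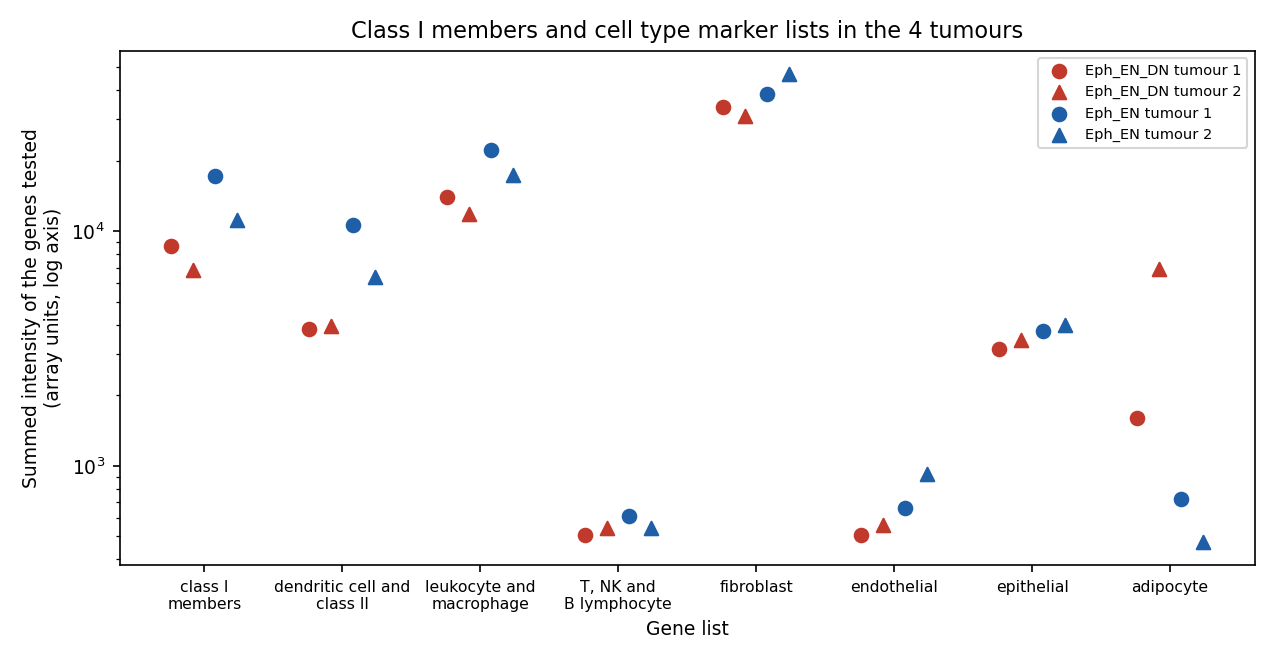
Summed intensity (array units, log axis) of the genes tested in the class I and immunoproteasome set and in 7 cell type marker lists, Eph_EN_DN in red left of Eph_EN in blue, circles for tumour 1 and triangles for tumour 2. Class I, class II and macrophage sums are highest in Eph_EN tumour 1, at 17183, 10693 and 22289 units. The T, NK and B lymphocyte sum is also highest there, at 610 units. Fibroblast, endothelial and epithelial sums are highest in Eph_EN tumour 2, and the adipocyte sum in Eph_EN_DN tumour 2.

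The median profile of the 10 genes, each centred on its own mean over the arrays, stood at -0.34 and -0.58 in Eph_EN_DN tumours, against 0.71 and 0.093 in Eph_EN tumours. Psmb9, Psmb8 and Tap1 lay nearest to it (root mean square distance over the 4 arrays of 0.12, 0.13 and 0.14 on the log2 scale) and Tap2 farthest (0.52). Of all other genes tested, the 5 nearest were Carhsp1 (0.058), Efhd2 (0.073), Apoe (0.085), Phf11d (0.087) and Slc15a3 (0.098). Apoe, the apolipoprotein that macrophages secrete in large amounts, read 2293 and 1998 units in Eph_EN_DN tumours, against 4972 and 3598 units in Eph_EN tumours. Slc15a3, a lysosomal peptide and histidine transporter, read 48.5 and 44.8 units in Eph_EN_DN tumours, against 111 and 66.9 units in Eph_EN tumours. With 4 arrays many genes can lie near a profile, though their number was not counted, and the distances describe these tumours only.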

How the data were processed

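RNA from 4 tumours was hybridised as biotin-labelled cRNA to Affymetrix arrays, per the labels. The authors deposited linear intensities of 45101 probe sets per array; their probe summary, background correction and scaling are not given in the sources used here. Values ran from 0 to 10806, and precision is limited by having 4 arrays. The platform annotation gave 34945 probe sets 1 symbol, and RefSeq (GRCm38.p6) names changed 0.

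Values were analysed as log2(intensity + 16), which understates differences of dim genes. The dimmest 40% of probe sets by the mean over the arrays were left out, and the brightest probe set per symbol was tested, 13325 genes in all. The test was limma (version 3.58.1, run under R 4.3.3) with lmFit and a trended eBayes (p-values are two-sided and Benjamini-Hochberg adjusted over all genes). The labels give only a tumour number and no animal or culture, so the p-values rest on the spread among these tumours, which could be technical. Each gene's variance, and with it its SE and p-value, was drawn toward the trend over all genes. No batch was given.

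The members, the lists and the naming rule were chosen with earlier results of these data known. The rule took in every member probe set, some of which are given here only within a range. It named up to 4 genes past the threshold, or the 2 farthest, for each pathway list. It also named the 5 genes nearest to the member profile. Other genes were named by role after their values were seen. Listed symbols with no probe set of their own were not analysed here, and 3 probe sets with several symbols including a member were not used. The fit was tested on simulated data with normal noise drawn from its own fitted variances. That run checks the code and cannot show whether those variances hold for these tumours. Alternatives were other dim filters, normalizations, pseudocounts, probe set summaries, variance models, thresholds, the replicate block and each tumour left out. Promoter alignment used Biopython 1.88, and plots matplotlib 3.10.9.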

Additional observations from a re-analysis of the deposited data

How the results depend on the processing

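In the 12 alternatives that recompute the differences, 9 of the 10 members kept a negative one. The replicate block and the other dim filters could not change a tested member's difference, so they are no check on it. Of 119 member values, with those settings counted, 5 changed sign, all of Tap2. They were -0.060 with quantile normalization, -0.079 with median centring and -0.019 with a pseudocount of 64. Without Eph_EN tumour 2 the Tap2 value was -0.58, and without Eph_EN_DN tumour 2 it was -0.099. The members' median was -0.60 with a pseudocount of 64 and ran from -1.13 to -0.50 with each tumour left out, the smallest without Eph_EN tumour 1; the cause was not tested beyond these values.

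The count of members called lower was 0 with quantile normalization, with a gene's probe sets averaged, without the intensity trend and at an adjusted p of 0.01, 2 with every probe set tested separately and at an adjusted p of 0.10, and 0 to 5 with each tumour left out. Pathway genes called lower were 2 when dim probe sets were kept, with a pseudocount of 64 and at 0.10, 0 with quantile normalization, averaged probe sets, separate probe sets, no trend and at 0.01, and 0 to 1 with each tumour left out; called higher they were 0 to 1. Over all genes 58 were lower and 19 higher. These were 29 and 10 with quantile normalization, 32 and 11 with averaged probe sets, 3 and 1 without the trend, 15 and 5 at 0.01, 35 higher at 0.10, 7 higher with median centring, and 12 to 99 lower and 11 to 86 higher with each tumour left out.

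Tumour numbers 1 and 2 occur in both groups without a stated link, and the deviations of same-numbered tumours correlated at -0.056 across genes. With the replicate block 6 genes were lower and 1 higher, with 0 members and 0 pathway genes lower. Signal over background limits Tap2, Nlrc5, H2-Q5 and the 5 dim probe sets.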
